A study of Mus musculus with 6 samples.

Results

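The podosome is a small adhesive structure of macrophages and osteoclasts, with a core of branched actin filaments and a surrounding ring of integrin-linked plaque proteins and myosin. In a resorbing osteoclast, podosomes gather into a belt, the actin ring, which seals the cell against bone. Branched filaments are made by the Arp2/3 complex under control of the WASP protein, gelsolin and cofilin sever them, alpha-actinins and fimbrins bundle them, and vinculin and talin couple them to integrins. The genes described here are 40 cytoskeletal genes of this machinery, taken from a list of gene symbols, and all 40 were found among 23282 gene entries.

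Messenger RNA was measured in RAW 264.7, a mouse macrophage line that can be driven to form osteoclasts. All 6 samples came from day 5 of osteoclast differentiation, 3 labelled control and 3 labelled CPN, in a series titled for a 60 kDa chaperonin, which assists protein folding. The labels gave no source, dose or time of addition for the chaperonin, and did not say whether the samples were separate cultures. The p-values therefore measure the spread among these 6 libraries alone, which could be technical. Values of single libraries are given below in the order of their replicate numbers.

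Libraries were made by QuantSeq, which sequences the 3′ end of each transcript, and held between 7957228 and 9713938 counts, of which the 40 genes took between 1.4% and 2.05%. Among genes with low counts, control 3 and CPN 1 had fewer zeros (23.76% and 14%) than the other 4 libraries (36.92% to 41.16%). Macrophage markers summed to between 1637 and 2152 CPM (counts scaled to library size by the TMM method) in control. In CPN they summed to between 1889 and 2396 CPM, with Mertk at 0 and the other 5 detected (any count above 0). Within this list, Adgre1 rose 3.454-fold and Fcgr1 rose 14.12-fold in CPN (edgeR adjusted p = 0.000609 and 0.00338). Csf1r, Cd68 and Lyz2 had log2 fold changes of -0.39, -0.19 and 0.74 and did not pass. All 7 osteoclast markers were detected, but Calcr had only 3 counts, all in control 3. Their sum lay between 3165 and 3467 CPM in control and between 735.1 and 1195 CPM in CPN. Stromal markers, all 5 detected but Col1a2 and Pdgfra with only 2 counts each, summed to at most 6.229 CPM in control. In CPN they summed to between 12.12 and 12.18 CPM, where Dcn made 11.28, 7.73 and 12.16 CPM of the sum. Of 4 granulocyte markers found, Elane was at 0 and the sum was at most 4.094 CPM, and the lymphoid markers Cd3g and Ms4a1 were at 0, where the sum of that list was at most 0.7848 CPM. The part of these differences in the results below was not tested, and in bulk samples fewer cells of a type and less RNA per cell cannot be told apart.

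Of the 40 genes, 39 had enough counts to be tested, 7 fell and 3 rose in CPN, and 29 did not pass. The genes that fell were Myo1f, Gsn, Vcl, Actn4, Myo10, Wipf1 and Actn1, by between 1.599-fold and 7.519-fold, and those that rose were Zyx, Myh9 and Actr3, by between 1.445-fold and 1.959-fold. Calls rest on a quasi-likelihood test in edgeR at an adjusted p of 0.05 (Benjamini-Hochberg over 11092 genes, n = 3 per group). Among all genes tested, 6.39% fell and 7.62% rose (14% in either direction), against 17.9% and 7.69% of the cytoskeletal genes. The 3 CPN values lay below all 3 control values for 13 of the 39 genes and above them for 6, where 15.7% and 16.9% of all genes did so. The log2 fold change was below 0 for 26 of the 39 genes, or 66.7% against 50.5% of all genes. The median log2 fold change was -0.10 for the cytoskeletal genes and -0.01 for all genes, and the actin genes themselves did not pass. Scaling by library totals alone, which moved the median of all genes to -0.13 and the share of all calls that were higher from 54.4% to 43%, gave 10 lower and 0 higher cytoskeletal genes. Without CPN 2 there were 4 lower genes, and without control 1, control 3, CPN 1 or CPN 2 there were 0 higher genes, with 1 without CPN 3. Without both control 3 and CPN 1, the libraries with the fewest zeros, Myo1f, Gsn and Actn4 were the 3 genes that fell and 0 rose.

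**Figure D1:**
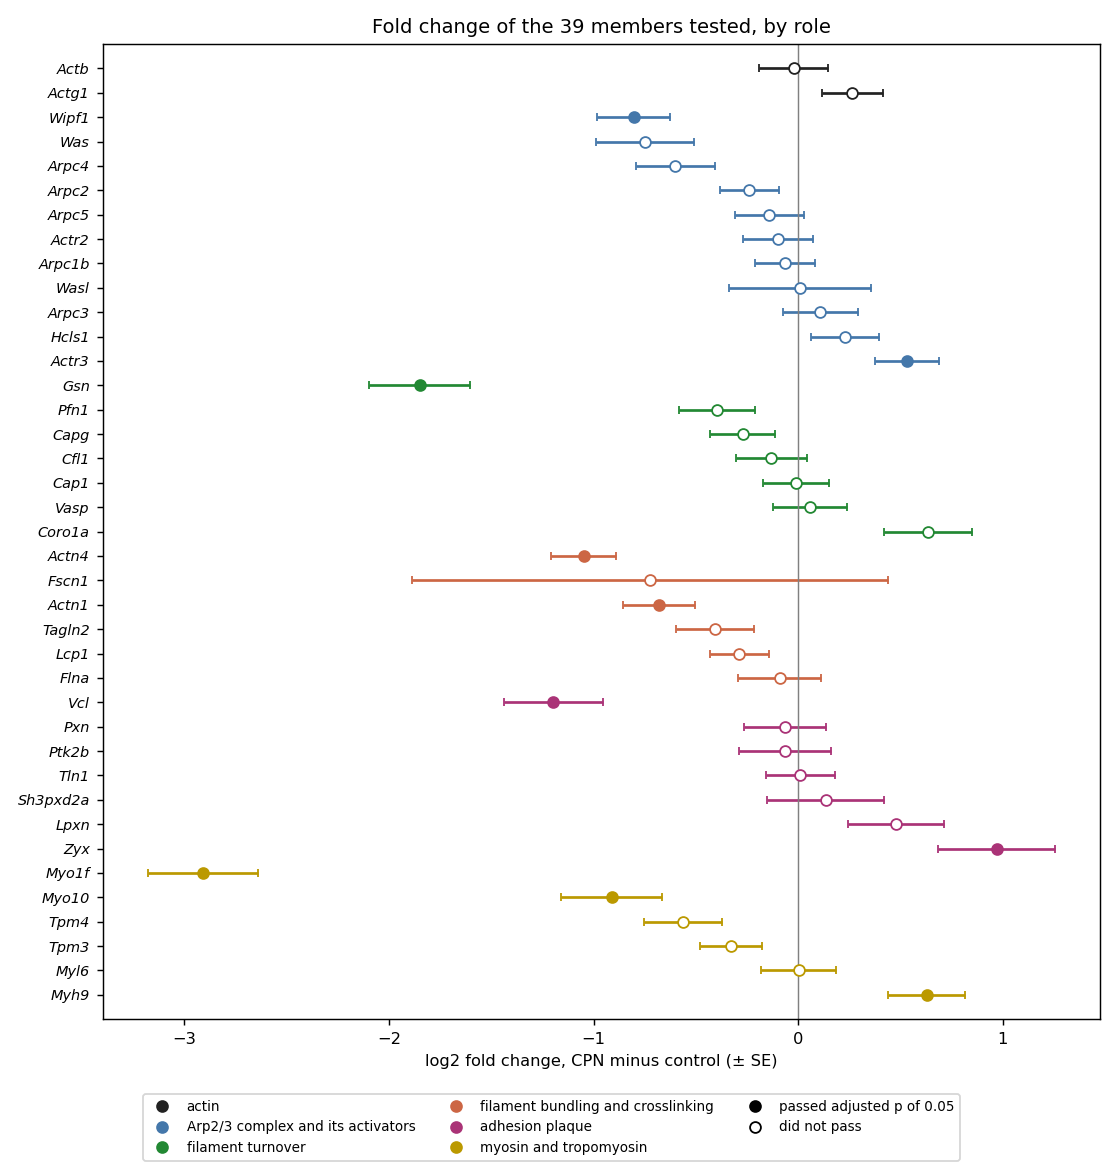
Log2 fold change (horizontal axis, CPN minus control, with SE) of the 39 cytoskeletal genes tested, ordered by role, with filled symbols for genes that passed an adjusted p of 0.05. Most genes lie near 0, while Myo1f at -2.91 and Gsn at -1.85 stand far to the left and the 3 genes that rose stay at or below 0.97.

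Myo1f and Gsn had the smallest p-values among the cytoskeletal genes, at rank 38 and 185 of all genes tested. Myo1f encodes a single-headed class I myosin of leukocytes that links membrane to actin (chromosome 17, 33555707 to 33607764, GRCm38). It had 155.9, 175.8 and 147.6 CPM in the 3 controls and 13.32, 22.13 and 28.29 CPM in the 3 CPN libraries. The highest CPN value was thus far under the lowest control value, and the log2 fold change was -2.91 ± 0.268 (SE, edgeR adjusted p = 2.25e-05). With any 1 library left out it stayed between -3.17 and -2.66 and passed each time.

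Gsn encodes gelsolin, which severs and caps actin filaments and is found in osteoclast podosomes (chromosome 2, 35256380 to 35307892). It had 553.7, 328 and 717.7 CPM in the 3 controls and 159, 126.7 and 157.7 CPM in the 3 CPN libraries. The controls were spread over a wide range, with control 2 the lowest, but each was above all CPN values. Gsn fell 3.607-fold (log2 fold change -1.85 ± 0.248, edgeR adjusted p = 0.000311), and passed with any 1 library left out, at a log2 fold change between -2.09 and -1.58.

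**Figure D2:**
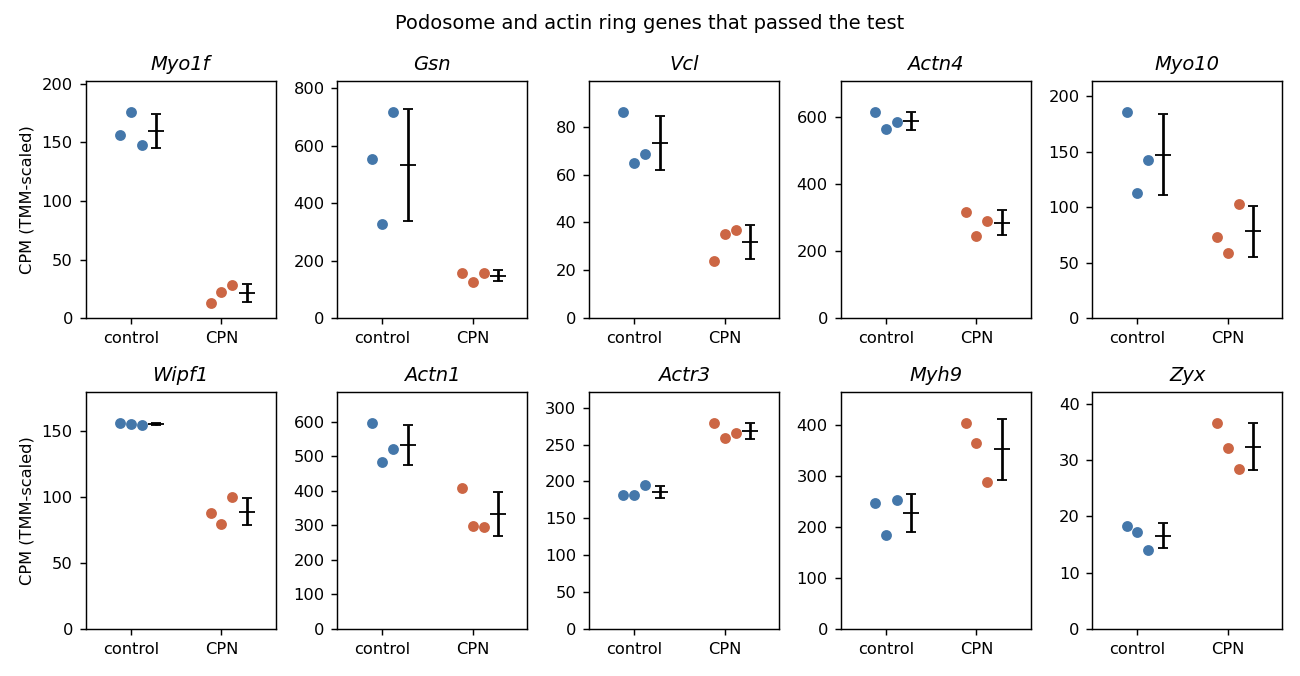
TMM-scaled CPM (vertical axis, from 0) of the 10 cytoskeletal genes that passed, with 1 point per library and the mean ± SD beside each group (n = 3). In all 10 panels the control and CPN points do not overlap, and the gap is widest as a ratio for Myo1f, with at most 28.29 CPM in CPN and at least 147.6 CPM in control.

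The filament itself showed no change that passed. Actb, the beta-actin gene (chromosome 5, 142903115 to 142906754), had 4950, 4743 and 5484 CPM in the 3 controls and 6426, 4410 and 4114 CPM in the 3 CPN libraries. CPN 1 was the highest of the 6 libraries and the other CPN libraries were the lowest, so the groups overlapped (log2 fold change -0.02 ± 0.169, edgeR adjusted p = 0.959). Actg1, the gamma-actin gene (chromosome 11, 120345690 to 120348542), had 686.6, 568.3 and 671.5 CPM in control and 816.2, 737.8 and 760.1 CPM in CPN. Its 3 CPN values were above the controls, but its log2 fold change of 0.27 ± 0.148 did not pass (edgeR adjusted p = 0.293). Without CPN 1 the log2 fold change of Actb was -0.25 and without control 3, CPN 2 or CPN 3 it was above 0, and none of these passed. The actins are near-identical in their coding stretch and have pseudogene copies, so their counts are uncertain where copies share reads.

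Of 12 genes of the Arp2/3 complex and its activators, 1 fell, 1 rose, 9 did not pass and 1 was too low to test. Wipf1, which encodes the WASP-interacting protein that stabilises WASP (chromosome 2, 73429610 to 73529734), had 156.6, 155.5 and 154.5 CPM in the 3 controls and 87.96, 79.5 and 99.99 CPM in the 3 CPN libraries. The controls were almost equal and all CPN values lay well under them (log2 fold change -0.80 ± 0.178, edgeR adjusted p = 0.00903). Without CPN 2 the call ended (adjusted p = 0.0549). Was, which encodes WASP, the activator of the complex in blood cells, had 66.9, 74.87 and 68.37 CPM in control and 30.12, 41.65 and 53.22 CPM in CPN. These groups did not overlap either, but Was did not pass (log2 fold change -0.75 ± 0.240, edgeR adjusted p = 0.0555). It passed under DESeq2 (adjusted p = 0.0402), with library totals alone, with no low-count filter and without CPN 3. Wasl, the broadly expressed relative N-WASP, was at 18.45 ± 5.344 CPM in control and 18.55 ± 3.398 CPM in CPN (SD, n = 3).

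Actr3, which encodes Arp3, an actin-related subunit that starts the branch (chromosome 1, 125392905 to 125435727), had 181.1, 180.9 and 194.5 CPM in the 3 controls and 279.6, 259.2 and 265.5 CPM in the 3 CPN libraries. Both groups were tight and apart (log2 fold change 0.53 ± 0.156, edgeR adjusted p = 0.0385). The call ended without control 1, control 3 or any CPN library (adjusted p between 0.0809 and 0.133), in fits with fewer samples, while the log2 fold change stayed between 0.50 and 0.57. It also ended with library totals alone (edgeR adjusted p = 0.128). Its partner Actr2, which encodes Arp2, had a log2 fold change of -0.10 ± 0.171. Arpc4, a subunit of the complex's core, had 254.8, 303.1 and 303.2 CPM in control and 241.6, 165.7 and 160.2 CPM in CPN, not overlapping but not passing (edgeR adjusted p = 0.0565). Arpc4 shares 283 exon bases on the same strand with Ttll3, which had 6126 counts and a change of -0.62 on the log2 scale (edgeR adjusted p = 0.057), so reads there cannot be assigned to one gene. Arpc4 passed without CPN 1, at -0.82 on the log2 scale (edgeR adjusted p = 0.0179), and also under DESeq2 (adjusted p = 0.0229), with library totals alone (edgeR adjusted p = 0.0352) and with no low-count filter.

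The 4 remaining subunits in the list, Arpc1b, Arpc2, Arpc3 and Arpc5, had log2 fold changes between -0.24 and 0.11 and did not pass. Arpc5l and Arpc1a, further subunits of the complex, are among the other actin regulators described below. Arpc5l had 90.94, 222.7 and 98.41 CPM in control and 284.6, 290.1 and 250.1 CPM in CPN. It rose 2.003-fold (edgeR adjusted p = 0.0354), with control 2 well above the other controls. Arpc1a did not pass (log2 fold change -0.49 ± 0.29, edgeR adjusted p = 0.324). Arpc2 had 1446, 1241 and 1283 CPM in control and 1198, 1023 and 1145 CPM in CPN, the CPN values all just under the controls (edgeR adjusted p = 0.331). Cttn, the cortactin gene, had 1 count, in control 2, over all 6 libraries, where 3 counts correspond to between 0.294 and 0.393 CPM. Hcls1, the cortactin relative of blood cells, had 302.2, 240.3 and 288.4 CPM in control and 365.5, 303.3 and 304.2 CPM in CPN. Its groups lay side by side without overlap and did not pass (log2 fold change 0.23 ± 0.167, edgeR adjusted p = 0.438).

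Of the 7 genes of filament turnover, Gsn fell and 6 did not pass. Capg, which encodes a capping relative of gelsolin, had 562, 630.7 and 516.1 CPM in control and 525.7, 467.2 and 423.7 CPM in CPN, with overlap (edgeR adjusted p = 0.315). The log2 ratio of Gsn to Capg was -0.16 ± 0.719 in control and -1.68 ± 0.232 in CPN (SD, n = 3). Coro1a, which encodes coronin 1A, an actin-binding protein of leukocytes, had 65.82, 72.47 and 97.59 CPM in control and 143, 119.1 and 104.3 CPM in CPN. The CPN values were all above the controls, though the closest pair was near (log2 fold change 0.64 ± 0.214, edgeR adjusted p = 0.0686), and the gene passed under DESeq2 (adjusted p = 0.04) and with no low-count filter. Coro1a shares 26 exon bases with Bola2 on the other strand, which rose (log2 fold change 0.66, edgeR adjusted p = 0.038). Cfl1 (cofilin), Cap1 (which recycles cofilin-bound actin), Pfn1 (profilin, which feeds actin monomers to filament ends) and Vasp (which extends filaments) had log2 fold changes between -0.40 and 0.06. Pfn1 had the lowest of these and passed in the fit without control 2, at -0.53 (edgeR adjusted p = 0.0383).

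All 6 bundling and crosslinking genes had a log2 fold change below 0, as did 50.5% of all genes. Of the 6, 2 passed (33.3%, against 6.39% of all genes that fell). For Flna and Fscn1 the change was smaller than its SE, so the direction of these is not clear. Actn4, which encodes alpha-actinin 4 (chromosome 7, 28893248 to 28962340), had 616.1, 564.7 and 587.4 CPM in the 3 controls and 318.5, 245.7 and 290.9 CPM in the 3 CPN libraries. The highest CPN library was far under the lowest control (log2 fold change -1.05 ± 0.159, edgeR adjusted p = 0.000785). The call held with any 1 library left out. Actn4 shares 316 exon bases with Capn12 on the other strand. Capn12 had 14030 counts against 22895 for Actn4 and changed by -1.04 on the log2 scale (edgeR adjusted p = 0.00131), so the 2 falls cannot be told apart in that stretch.

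Actn1, which encodes alpha-actinin 1 (chromosome 12, 80167547 to 80260371), had 597.6, 484.1 and 520.2 CPM in the 3 controls and 406.9, 298.2 and 296.4 CPM in the 3 CPN libraries. CPN 1 was the nearest to the controls (log2 fold change -0.68 ± 0.176, edgeR adjusted p = 0.021). The call ended without control 1, control 3, CPN 2 or CPN 3, at an adjusted p between 0.0748 and 0.11. Lcp1, the leukocyte bundling protein L-plastin, had 1656, 1418 and 1566 CPM in control and 1338, 1115 and 1347 CPM in CPN, lower in each CPN library but not passing (edgeR adjusted p = 0.234). Flna, a large crosslinker that binds integrins, and Tagln2, a small actin-binding protein, had log2 fold changes of -0.09 ± 0.204 and -0.41 ± 0.191, and Tagln2 passed without control 2 (edgeR adjusted p = 0.0447). Fscn1, the fascin gene, had 86 counts in all and an SE of 1.165 on the log2 scale, so that a difference was not detectable at this depth.

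Of the 7 adhesion plaque genes, Vcl fell, Zyx rose and 5 did not pass. Vcl encodes vinculin, which ties talin and integrins to actin (chromosome 14, 20929398 to 21033676). It had 86.13, 64.69 and 68.6 CPM in the 3 controls and 23.88, 35.1 and 36.72 CPM in the 3 CPN libraries. All CPN libraries were well under the lowest control (log2 fold change -1.20 ± 0.242, edgeR adjusted p = 0.0052). The call held with any 1 library left out. It ended without both control 3 and CPN 1 (adjusted p = 0.0952). Vcl shares 2090 exon bases with Ap3m1 on the other strand, which had 4221 counts against 2768 for Vcl and a change of 0.00 on the log2 scale (edgeR adjusted p = 0.995).

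Zyx encodes zyxin, a protein that senses tension in actin bundles (chromosome 6, 42349630 to 42360213). It had 18.25, 17.25 and 14.02 CPM in the 3 controls and 36.6, 32.09 and 28.41 CPM in the 3 CPN libraries. The level was low, but the groups were well apart (log2 fold change 0.97 ± 0.286, edgeR adjusted p = 0.0388). The call ended without control 1, control 3 or any CPN library (adjusted p between 0.0554 and 0.151), and with library totals alone (adjusted p = 0.0699). Tln1, the talin gene, had 555.3, 583.2 and 534.1 CPM in control and 675.1, 550.2 and 458.8 CPM in CPN, so that the CPN libraries lay on both sides of the controls (log2 fold change 0.01 ± 0.168). Pxn (paxillin), Ptk2b (the adhesion kinase PYK2) and Sh3pxd2a (the podosome scaffold TKS5) had log2 fold changes between -0.07 and 0.13. Lpxn, the paxillin relative leupaxin of blood cells, overlapped between groups at a log2 fold change of 0.48 ± 0.235 and passed without control 2, at 0.75 (edgeR adjusted p = 0.0222).

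Of 6 myosin and tropomyosin genes, Myo1f and Myo10 fell, Myh9 rose and 3 did not pass. Myo10, an unconventional myosin that moves to the tips of filopodia (chromosome 15, 25622525 to 25813673), had 185.7, 112.8 and 142.9 CPM in the 3 controls and 73.2, 58.28 and 103.1 CPM in the 3 CPN libraries. The lowest control and the highest CPN library were close (log2 fold change -0.91 ± 0.248, edgeR adjusted p = 0.0266). The call ended without control 1, control 3, CPN 1 or CPN 2 (adjusted p between 0.0772 and 0.135).

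Myh9, the heavy chain of non-muscle myosin II, which contracts the ring around podosome cores (chromosome 15, 77760587 to 77842175), moved the other way. It had 246.3, 185.1 and 252 CPM in the 3 controls and 404.6, 363.8 and 287.6 CPM in the 3 CPN libraries. CPN 3 was the nearest to the controls (log2 fold change 0.63 ± 0.188, edgeR adjusted p = 0.0412). The call ended without any control library, CPN 1 or CPN 2 (adjusted p between 0.059 and 0.14), and with library totals alone (adjusted p = 0.121). The light chain gene Myl6 was at 196.4 ± 3.49 CPM in control and 196.7 ± 41.16 CPM in CPN.

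Tropomyosins wrap filaments and set which proteins may bind them. Tpm4 had 202.2, 201.1 and 202.3 CPM in control and 139.1, 104.1 and 166.7 CPM in CPN, and Tpm3 had 810.3, 727.3 and 805.5 CPM in control and 708.5, 590.4 and 566.7 CPM in CPN. Neither overlapped between groups and neither passed (edgeR adjusted p = 0.0733 for Tpm4 and 0.19 for Tpm3). Tpm4 passed under DESeq2 (adjusted p = 0.0414), with library totals alone, with no low-count filter and without CPN 3.

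**Figure D3:**
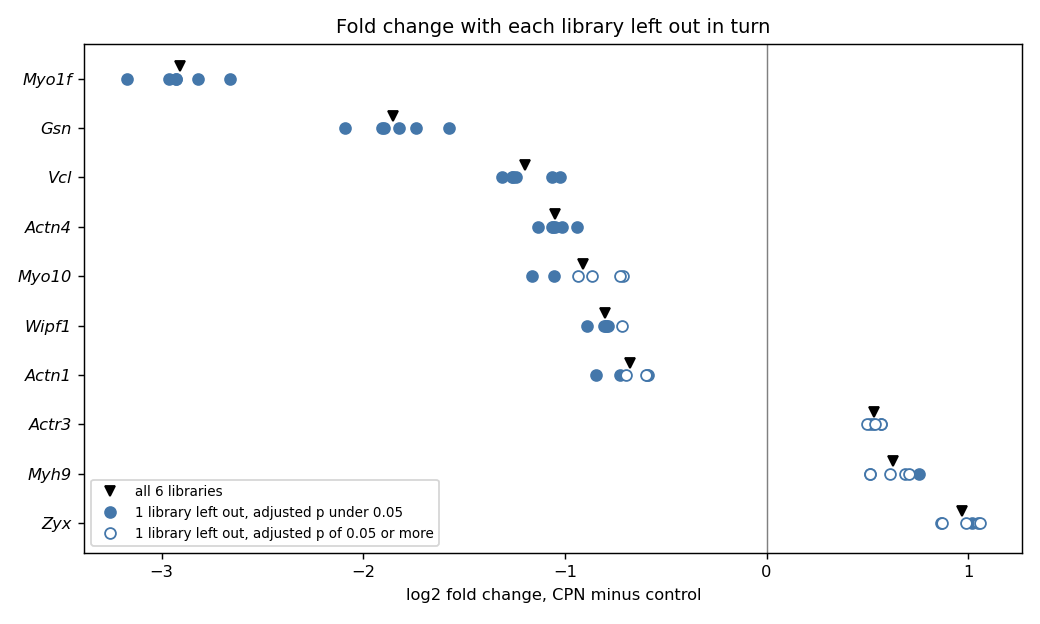
Log2 fold change (horizontal axis, CPN minus control) of the 10 cytoskeletal genes that passed, with all 6 libraries (triangles) and with each library left out in turn (circles, open where the adjusted p was 0.05 or more). Myo1f, Gsn, Vcl and Actn4 have filled circles only, and Actr3, Myh9 and Zyx have mostly open ones.

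Summed over the 40 genes, the level was 18914, 17048 and 19092 CPM in the 3 controls and 18697, 15182 and 15194 CPM in the 3 CPN libraries. CPN 1 thus lay among the controls, and Actb took 34.37% of the cytoskeletal counts in that library against between 26.17% and 29.05% in the other 5. Bundling and crosslinking genes summed to 3080 ± 245 CPM in control and 2230 ± 251 CPM in CPN, a ratio of 1.38 (SD, n = 3). Of these, Actn4 went from a mean of 589.4 to 285 CPM, Actn1 from 534 to 333.8 and Lcp1 from 1547 to 1267. Filament turnover genes summed to 2597 ± 213 CPM in control and 2043 ± 64 CPM in CPN. Gsn alone went from a mean of 533.1 to 147.8 CPM, and the other 6 turnover genes did not pass. Myosin and tropomyosin genes summed to 1714 ± 102 and 1407 ± 153 CPM, of which Myo1f went from 159.8 to 21.25 CPM. In these 3 roles every CPN library was under every control library, as was so for 15.7% of single genes among all tested. The share among sums of genes was not computed. For myosin and tropomyosin genes the groups all but touched, at 1601 CPM in control 2 and 1583 CPM in CPN 1. The sums restate in part the genes that passed. Sums of the Arp2/3 genes (4287 ± 310 and 3932 ± 188 CPM), the plaque genes (972 ± 60 and 992 ± 136 CPM) and the actins (5701 ± 426 and 5755 ± 1296 CPM) overlapped.

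**Figure D4:**
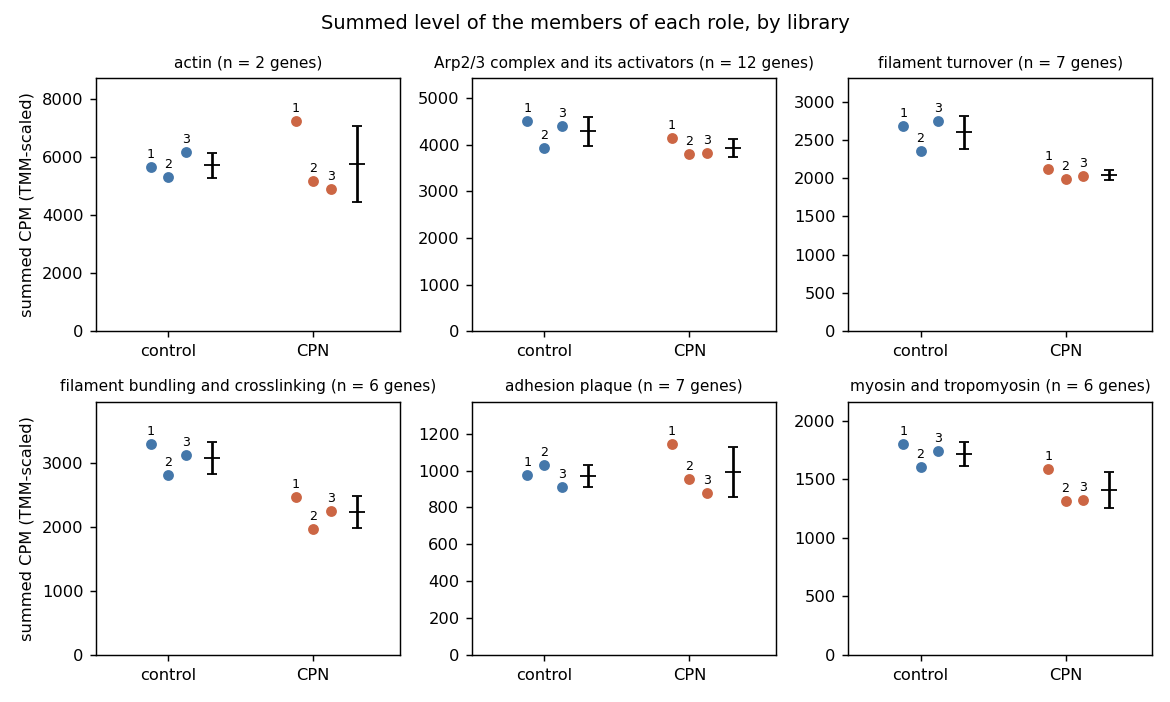
Summed TMM-scaled CPM (vertical axis, from 0) of the cytoskeletal genes of each role, with 1 numbered point per library and the mean ± SD (n = 3) beside it. The bundling panel falls from 3080 to 2230 CPM without overlap, while CPN 1 is the highest CPN library in each panel.

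The balance between related genes was set out as the log2 ratio of their CPM values in each library (0.5 CPM added to each). The ratio of Actn1 to Actn4 was -0.04, -0.22 and -0.17 in the 3 controls and 0.35, 0.28 and 0.03 in the 3 CPN libraries. Actn4 was thus the higher of the pair in each control and Actn1 in each CPN library. The ratio of Was to Wasl was 1.93 ± 0.404 in control and 1.13 ± 0.534 in CPN, and that of Lpxn to Pxn was -0.02 ± 0.395 and 0.56 ± 0.015. The groups did not overlap for these 3 pairs or for Gsn and Capg. For Was to Wasl they all but touched, at 1.487 in control 3 and 1.474 in CPN 2. Each of these pairs had a two-sided exact permutation p of 0.1 (0.14 adjusted over 7 pairs). With 3 against 3 samples, 0.1 is the smallest possible. The share of other gene pairs without overlap was not computed, and Gsn, Actn1 and Actn4 had passed singly. Actb to Actg1 (2.98 ± 0.114 and 2.66 ± 0.280, exact permutation p = 0.2) and Tpm3 to Tpm4 (1.95 ± 0.083 and 2.20 ± 0.388, exact permutation p = 0.4) overlapped. The seventh pair, Hcls1 to Cttn, rests on 1 count of Cttn and is not read.

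**Figure D5:**
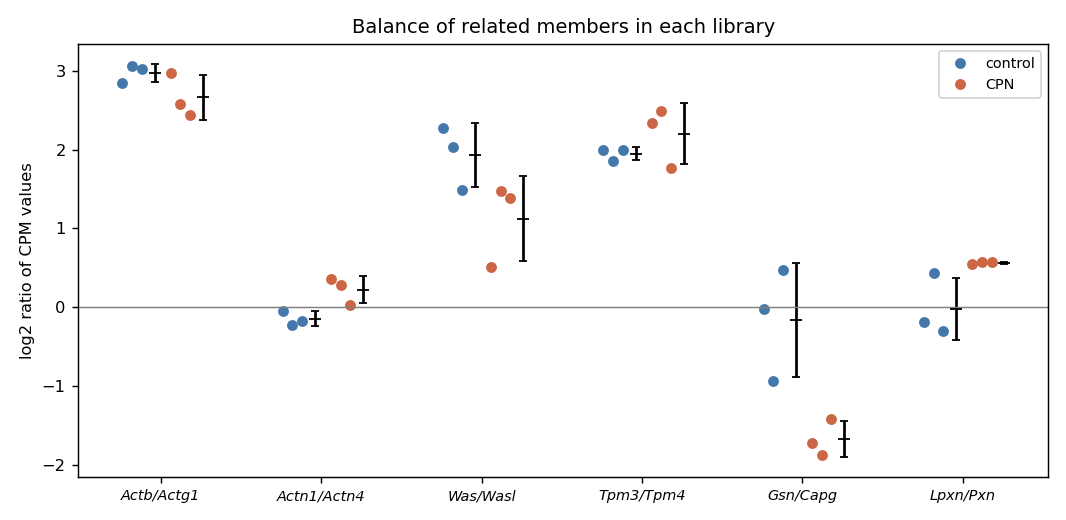
Log2 ratio of the CPM values of 6 pairs of related genes (vertical axis), with 1 point per library and the mean ± SD beside each group (n = 3). Gsn to Capg shows the widest gap, from -0.16 to -1.68, and Actn1 to Actn4 crosses 0.

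Genes that act on the same machinery were read from lists chosen by function. Of 23 integrin adhesion genes, 20 were tested, 3 fell and 2 rose (15% and 10%, against 6.39% and 7.62% of all genes). Itgb3, Parva and Tgfb1i1 were too low to test, with 41, 0 and 14 counts over all 6 libraries. Itgam, the integrin subunit CD11b, rose 3.941-fold and Tes, the plaque protein testin, rose 3.133-fold (edgeR adjusted p = 5.44e-05 and 0.000258), the latter to 249.3 ± 70.84 CPM against 79.55 ± 7.636 CPM in control. Trip6, a relative of zyxin, fell 2.858-fold (edgeR adjusted p = 0.000426), in the direction opposite to Zyx. Pstpip1, which binds WASP, fell 1.972-fold (edgeR adjusted p = 0.00281). Scaling by library totals alone gave 6 lower genes in this list, and leaving out control 2 gave 5.

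Of 56 other actin regulators, 55 were found and 51 tested, with 4 lower and 8 higher (7.84% and 15.7%, against 6.39% and 7.62% of all genes). Msn, which encodes moesin, a link between membrane and actin, rose 2-fold from 233.1 ± 16.19 CPM (edgeR adjusted p = 0.00087). Plek (pleckstrin) rose 3.149-fold and Daam1, a formin that builds unbranched filaments, rose 2.996-fold (edgeR adjusted p = 0.00111 and 0.00314). Higher genes in this list numbered 3 without control 1 or CPN 1, and 4 without control 3, CPN 2 or CPN 3.

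Promoter windows, from 250 bases before to 50 after the start, were found in RefSeq (GRCm38.p6) for 35 of the 40 genes. They were searched on both strands for the CArG box, the site of serum response factor, a known regulator of actin genes, and for GAGGAA, the core of the site of the myeloid factor PU.1. No window of these genes held both motifs. A CArG box was in the windows of 4 of the 35 genes (11.43%) and of 1.81% of all 27025 genes. GAGGAA was in those of 9 of the 35 (25.71%) and of 31.25% of all genes. Of the 10 genes that passed, 1 held a CArG box (Vcl) and 3 held GAGGAA (Gsn, Myo1f and Wipf1). A match describes the letters and shows neither binding nor a cause. The 4 windows with a CArG box are shown first, because they include Vcl, which fell, beside Actg1, Arpc4 and Myl6, which did not pass. Printed are the 250 bases before the start, 5′ to 3′ on the strand of the gene, with the CArG box in capitals.
Vcl, chr14:20929148-20929397, plus strand: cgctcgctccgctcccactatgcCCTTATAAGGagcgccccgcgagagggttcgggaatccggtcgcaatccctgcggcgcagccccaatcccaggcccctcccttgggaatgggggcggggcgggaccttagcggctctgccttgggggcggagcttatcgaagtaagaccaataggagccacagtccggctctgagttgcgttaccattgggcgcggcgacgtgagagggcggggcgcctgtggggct
Actg1, chr11:120348496-120348745, minus strand: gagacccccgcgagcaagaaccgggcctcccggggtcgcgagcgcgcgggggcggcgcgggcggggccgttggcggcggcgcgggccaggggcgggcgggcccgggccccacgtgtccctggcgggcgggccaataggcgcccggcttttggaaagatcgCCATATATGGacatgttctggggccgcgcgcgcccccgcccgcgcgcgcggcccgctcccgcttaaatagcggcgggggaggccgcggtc
Arpc4, chr6:113377863-113378112, plus strand: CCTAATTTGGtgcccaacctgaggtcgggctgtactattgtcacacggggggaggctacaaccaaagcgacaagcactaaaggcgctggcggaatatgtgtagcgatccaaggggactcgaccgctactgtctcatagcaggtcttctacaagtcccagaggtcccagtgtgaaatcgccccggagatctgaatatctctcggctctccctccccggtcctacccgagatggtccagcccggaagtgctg
Myl6, chr10:128493010-128493259, minus strand: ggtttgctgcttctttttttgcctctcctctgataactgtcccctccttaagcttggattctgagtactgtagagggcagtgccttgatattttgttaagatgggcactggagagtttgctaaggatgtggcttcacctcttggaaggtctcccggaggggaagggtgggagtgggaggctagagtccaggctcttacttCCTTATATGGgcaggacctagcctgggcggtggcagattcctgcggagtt
The box lies 217 bases before the start in Vcl, 80 in Actg1, 240 in Arpc4 and 40 in Myl6. Gsn and Wipf1 follow because both fell and each holds GAGGAA once on either strand in the window shown, in capitals (TTCCTC where it is on the other strand).
Gsn, chr2:35256109-35256358, plus strand: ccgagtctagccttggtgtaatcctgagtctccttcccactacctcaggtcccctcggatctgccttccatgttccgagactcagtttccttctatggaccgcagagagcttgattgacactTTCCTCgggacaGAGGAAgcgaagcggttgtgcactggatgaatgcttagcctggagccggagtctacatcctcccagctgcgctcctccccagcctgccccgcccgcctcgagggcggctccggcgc
Wipf1, chr2:73453890-73454139, minus strand: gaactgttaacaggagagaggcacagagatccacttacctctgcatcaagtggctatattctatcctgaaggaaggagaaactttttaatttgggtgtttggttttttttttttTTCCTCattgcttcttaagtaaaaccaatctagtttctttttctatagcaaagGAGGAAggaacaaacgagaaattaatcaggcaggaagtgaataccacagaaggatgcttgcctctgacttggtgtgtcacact
The other windows of Gsn and Wipf1 held no GAGGAA. For Wipf1 these include the window at the annotated 5′ end of the gene, while the window shown lies at a start inside the gene. Other windows of these genes, and the single GAGGAA of Myo1f past its start, are not shown. Fold changes of the 4 genes with a CArG box ran from -1.20 for Vcl and -0.60 for Arpc4 to 0.00 for Myl6 and 0.27 for Actg1 on the log2 scale.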

How the data were processed

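The authors deposited 1 table of raw counts per gene for each of 6 RAW 264.7 samples (3 control, 3 CPN). Total RNA was isolated with Trizol and converted to QuantSeq libraries, per the labels' protocols. Reads were processed with Bowtie2 and bedtools on mm10, per the submitters' processing notes. Not given in the sources used here are versions, annotation, strand use and the treatment of reads with several alignments.

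The test was run with edgeR 4.0.16 in R 4.3.3 (TMM, filterByExpr with minimum count 10 and total 15, quasi-likelihood test, Benjamini-Hochberg over 11092 genes). The SE is the log2 fold change divided by the square root of F, and other errors are SD. Alternatives were other size factors, DESeq2 1.42.0, no low-count filter, removal of the ribosomal precursor Rn45s, the replicate number as a block, and libraries left out. The code was tested on simulated counts. Coordinates and overlaps are from GENCODE M21 on GRCm38, the assembly of mm10. Of the 40 genes, 9 share exon bases with another counted gene.

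The members and lists were chosen with earlier results of these data known. Values in every library are given for genes that passed, for genes of the same roles whose groups do not overlap and for the actins, and the genes named per related list are the 4 of smallest p, except that some items, 1 whole list among them, are not reported here. Tln1, Capg, Cttn, Arpc5l, Arpc1a and the untested integrin adhesion genes were added after their values were seen. So were the promoters shown of genes other than Vcl.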

Additional observations from a re-analysis of the deposited data

How the results depend on the processing

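No result changed direction among genes that passed. Over 13 alternatives, 37 of 506 values for the 39 cytoskeletal genes lost the call, 17 gained it and 0 reversed. Myo1f, Gsn and Actn4 passed under all 13. With DESeq2-type size factors or without Rn45s the counts were 7 lower and 3 higher, as reported, and under DESeq2 or with no low-count filter they were 10 and 4. Library totals alone gave 0 higher cytoskeletal genes, a median of -0.22, 6 lower integrin adhesion genes and 5 higher other actin regulators. Without both control 3 and CPN 1, there were 3 lower and 0 higher cytoskeletal genes, a median of -0.19, 1 lower and 1 higher other actin regulator, and 446 genes in all against 1554. With 1 library left out, the cytoskeletal genes gave between 4 and 9 lower, between 0 and 3 higher and a median between -0.24 (without CPN 1) and -0.062 (without control 3). The integrin list then gave between 3 and 5 lower, the other regulators between 3 and 8 higher, and all genes between 884 and 1954. These fits have fewer samples, and the cause of each change was not tested. Same-numbered control and CPN libraries had correlations of -0.051, 0.02 and 0.028 in their deviations from the group means. Libraries of different number had correlations between -0.067 and 0.058. With 3 libraries per group, these values cannot decide whether the replicate numbers pair the samples. With the replicate block there were 7 lower and 0 higher cytoskeletal genes and 1326 genes in all, and Zyx, Myh9 and Actr3 had adjusted p-values of 0.0598, 0.0722 and 0.0828. Fscn1 and Cttn were too low for a difference to be seen. Counting error alone is small for the other genes, which had at least 940 counts each.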
